A study of Homo sapiens with 15 samples.

Results

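A set of 8 human genes whose proteins are secreted by, or line the surface of, mucosal epithelia were followed through 15 RNA-seq libraries. They were TFF1, LCN2, PI3, SLPI, SPRR2A, S100P, CEACAM6 and MUC1, that is 8 of the 62703 genes in the HEK293T count table and of the 35595 genes in the HuCCT1 table. The genes were picked by symbol, with their counts in these libraries in view and mostly because they could be measured in HuCCT1, so their levels and their differences between groups, in either line, are given as a description. HuCCT1 is a cell line from a human bile duct carcinoma, and HEK293T is a line derived from human embryonic kidney. HuCCT1 was sequenced as 3 libraries labelled SNRPD2KO and 3 labelled Ctrl. HEK293T was sequenced as 3 libraries each labelled SNRPD2KO, PUS7KO and Ctrl. The knockouts were made by CRISPR-Cas9. SNRPD2 encodes a core protein of the spliceosomal small ribonucleoproteins, and PUS7 encodes an enzyme that makes pseudouridine in RNA. Whether a knockout came from 1 clone, and whether replicates were separate cultures, is not given in the sources used here, so p-values measure only the spread between these libraries, which may be technical.

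Mucosal epithelia cover themselves with a layer of mucus and release small proteins into it. Trefoil peptides such as TFF1 associate with mucins and aid repair of the surface, lipocalin 2 (LCN2) withholds iron from bacteria by binding their siderophores, and elafin (PI3) and SLPI block neutrophil proteases. MUC1 is a transmembrane mucin that extends from the apical membrane, and CEACAM6 is a cell adhesion protein held in the membrane by a lipid anchor. SPRR2A is a small proline-rich protein of the cornified envelope that is also made by stressed mucosa, and S100P is a calcium-binding protein found in many carcinomas, including those of the pancreas and bile duct.

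Total counts were 7944276 to 11270267 in HEK293T and 13776166 to 16795618 in HuCCT1. SNRPD2 RNA went against its label: in HuCCT1 it was 260, 286 and 319 CPM (read counts scaled to a fixed library size, with size factors) in the libraries labelled SNRPD2KO and 160, 146 and 157 CPM in Ctrl. In HEK293T it was 246 to 309 CPM in SNRPD2KO, 236 to 280 CPM in PUS7KO and 169 to 196 CPM in Ctrl, while PUS7 was 13.7 to 18.1 CPM in PUS7KO and 26.0 to 27.0 CPM in Ctrl. The labels tie table columns named C to SNRPD2KO and columns named S to Ctrl. Every direction below is therefore that of the labelled groups. A direction of SNRPD2KO minus Ctrl would turn round if these labels were exchanged in that line, which was not tested. Comparisons with PUS7KO would change in size but need not turn round. An exchange in a single line would change whether the lines go the same way. Bile duct epithelium markers summed to 12538 to 12768 CPM in HuCCT1 Ctrl libraries with counts for 12 of 12 genes, to 12067 to 13020 CPM in SNRPD2KO with SPP1 at 0, and to 214 to 373 CPM in HEK293T Ctrl, where KRT19 was at 0. HuCCT1 replicates correlated at 0.988 to 0.990 within a group and at 0.950 to 0.954 between groups (log2 CPM across genes, which are not independent replicates). In HEK293T the correlations were 0.980 to 0.985 within a group and 0.921 to 0.985 between groups, so these ranges overlapped.

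The stretches before the annotated starts are shown for S100P, SPRR2A, MUC1 and LCN2, because these genes include the one that differed in direction between the lines, the one that was higher in HuCCT1 SNRPD2KO, and a pair that was lower. The sequences are from RefSeq (GRCh38.p14), which gave a promoter entry for 5 of the 8 genes. They read 5′ to 3′ along the gene's strand, at chr4:6693628-6693877 (plus strand) for S100P, chr1:153057513-153057762 (minus) for SPRR2A, chr1:155192916-155193165 (minus) for MUC1 and chr9:128149265-128149440 (plus) for LCN2. Capitals mark matches to 3 patterns searched on both strands: the TATA box core TATAAA, the AP-1 pattern TGANTCA and a loose kappaB pattern, GGGA and CC with any 4 bases between them.
S100P: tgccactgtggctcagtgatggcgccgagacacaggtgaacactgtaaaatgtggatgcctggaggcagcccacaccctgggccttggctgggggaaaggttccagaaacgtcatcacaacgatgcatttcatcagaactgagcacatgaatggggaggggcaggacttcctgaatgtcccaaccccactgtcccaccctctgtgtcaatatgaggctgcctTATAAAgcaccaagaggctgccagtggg
SPRR2A: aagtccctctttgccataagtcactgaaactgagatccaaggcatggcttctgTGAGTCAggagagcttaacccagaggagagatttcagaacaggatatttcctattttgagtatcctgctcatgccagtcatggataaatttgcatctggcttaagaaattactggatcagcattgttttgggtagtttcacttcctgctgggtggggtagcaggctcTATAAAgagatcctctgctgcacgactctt
MUC1: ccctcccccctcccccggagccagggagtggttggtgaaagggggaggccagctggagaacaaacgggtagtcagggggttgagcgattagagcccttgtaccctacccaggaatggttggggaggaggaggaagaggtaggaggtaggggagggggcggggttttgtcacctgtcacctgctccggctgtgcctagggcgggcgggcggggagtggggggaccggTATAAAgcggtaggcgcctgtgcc
LCN2: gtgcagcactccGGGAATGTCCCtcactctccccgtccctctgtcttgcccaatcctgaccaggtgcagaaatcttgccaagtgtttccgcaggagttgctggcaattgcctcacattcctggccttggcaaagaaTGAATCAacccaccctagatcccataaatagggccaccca
TATAAA began 28 bases before the start in S100P, 30 before it in SPRR2A and 24 before it in MUC1, and 10.7% of 35116 RefSeq promoters hold this pattern in the 250 bases before their start. TGANTCA began 52 bases before the start in LCN2 and 197 before it in SPRR2A, against 6.57% of promoters. The kappaB pattern matched LCN2 on both strands at 176 and 175 bases, 2 matches that overlap, against 22.6% of promoters. The LCN2 stretch was limited to bases between annotated exons, since the RefSeq start lies 382 bases inside the gene as the count table draws it. It therefore stops short of that start, and the LCN2 positions count from the start, not from the last base shown. The CEACAM6 entry starts 4553 bases inside the table's gene and is not shown. These matches are letters in a window and do not show that a factor binds there.

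In HuCCT1, 7 of the 8 genes were lower in the libraries labelled SNRPD2KO than in Ctrl, and MUC1 was higher. All 8 passed the low-count filter (edgeR's default), and in none of them did the 3 SNRPD2KO libraries overlap the 3 Ctrl libraries. S100P, with 4, 7 and 2 counts in SNRPD2KO, passed only through Ctrl, so it had to be higher there to be kept. SPRR2A, with 11, 8 and 11 counts in SNRPD2KO, also needed its Ctrl libraries to pass. All 8 also lay under the threshold used for other genes, an adjusted p of 0.05 in edgeR's quasi-likelihood test over the 15007 genes that passed the filter. Since 57.2% of those genes did so, 28.4% as lower and 28.8% as higher, and 63.5% had groups that did not overlap (31.6% with every SNRPD2KO library lower and 31.9% with every one higher), and since the genes were picked with this contrast known, nothing is read from the count. The median log2 fold change (SNRPD2KO minus Ctrl) was -2.74 over the 8 genes and 0.00253 over all genes tested, of which the 10th to the 90th percentile ran from -0.85 to 0.93. In bulk RNA, fewer cells that express a gene and less of its RNA per cell cannot be told apart.

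**Figure D1:**
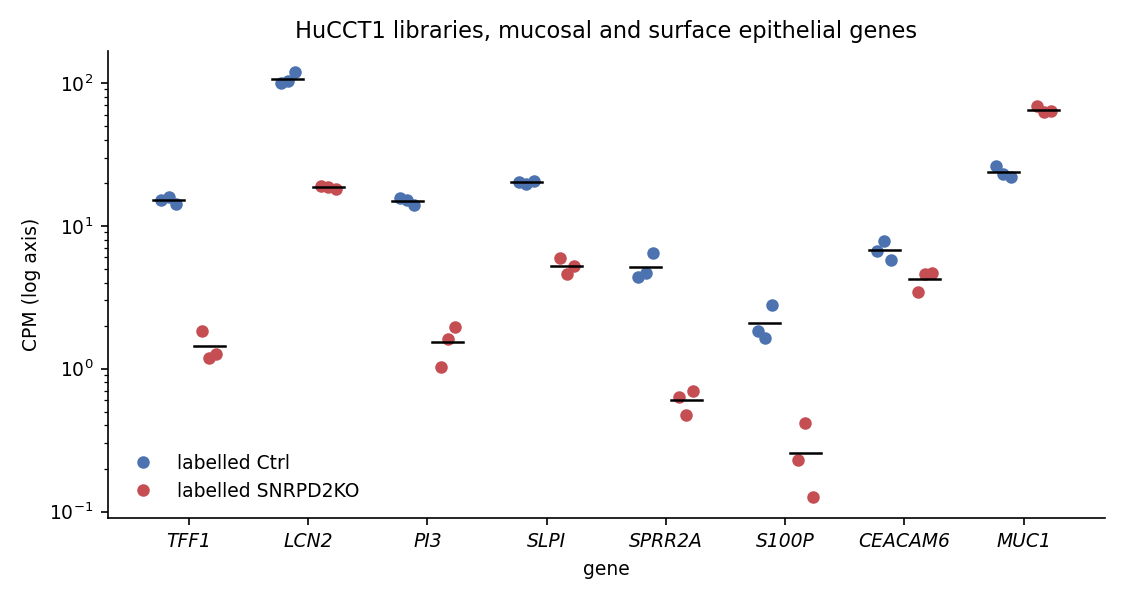
CPM (log axis) of the 8 genes in each of the 6 HuCCT1 libraries; points are libraries and black lines group means. LCN2 is the most abundant of the 8 in Ctrl at 107 CPM, and MUC1 alone has its SNRPD2KO libraries above its Ctrl libraries.

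Among the secreted proteins, TFF1 (ENSG00000160182.3, chr21:42362282-42366535, minus strand) had 15.1, 16.02 and 14.2 CPM in the Ctrl libraries and 1.83, 1.19 and 1.27 CPM in SNRPD2KO. The highest SNRPD2KO library lay far below the lowest Ctrl library. The means were 15.1 ± 0.904 and 1.43 ± 0.352 CPM (SD, n = 3 each), a log2 fold change of -3.39 (SE 0.18), or 10.5-fold lower. Of the 15007 genes tested, TFF1 ranked 23rd from the lowest fold change. Its counts summed to 691 in Ctrl and 72 in SNRPD2KO.

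PI3 (ENSG00000124102.5, chr20:45174902-45176544, plus strand), the elastase inhibitor elafin, had 15.6, 15.1 and 13.9 CPM in Ctrl and 1.03, 1.60 and 1.97 CPM in SNRPD2KO. Its Ctrl libraries all sat near the level of TFF1, and its SNRPD2KO libraries did too. The means were 14.9 ± 0.879 and 1.54 ± 0.473 CPM (SD, n = 3), a log2 fold change of -3.28 (SE 0.20), or 9.72-fold lower.

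SLPI (ENSG00000124107.5, chr20:45252239-45254564, minus strand), the secretory leukocyte protease inhibitor, carries the same kind of inhibitor domain as elafin and lies 77.3 kb from PI3. It had 20.3, 19.5 and 20.6 CPM in Ctrl and 5.96, 4.63 and 5.21 CPM in SNRPD2KO. The groups stood apart, by less than for PI3. The means were 20.1 ± 0.566 and 5.27 ± 0.668 CPM (SD, n = 3), a log2 fold change of -1.93 (SE 0.12), or 3.81-fold lower.

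LCN2 (ENSG00000148346.12, chr9:128149071-128153453, plus strand) was the most abundant of the 8 in Ctrl, with 99.9, 102 and 119 CPM against 18.9, 18.8 and 18.1 CPM in SNRPD2KO. The SNRPD2KO libraries lay close together, and the third Ctrl library was the highest. The means were 107 ± 10.5 and 18.6 ± 0.424 CPM (SD, n = 3), a log2 fold change of -2.52 (SE 0.08), or 5.76-fold lower. LCN2, SLPI and CEACAM6 are also made by neutrophils or other leukocytes. Of 11 leukocyte and neutrophil markers, 9 are listed in the HuCCT1 table, and they summed to 6.54 to 6.58 CPM in Ctrl, with PTPRC, MS4A1 and FCGR3B at 0, and to 2.06 to 2.92 CPM in SNRPD2KO. The 2 that could be tested were lower in SNRPD2KO: CD14 had 3.06 CPM in Ctrl and 1.52 in SNRPD2KO, and MPO had 2.87 and 0.648 CPM. Their summed level was below that of LCN2 or SLPI in every Ctrl library and close to that of CEACAM6 (given below), and their part in these results was not tested.

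Of the intracellular proteins, SPRR2A (ENSG00000241794.2, chr1:153056120-153057512, minus strand) had 4.38, 4.69 and 6.43 CPM in Ctrl and 0.631, 0.475 and 0.699 CPM in SNRPD2KO. All 3 SNRPD2KO libraries were below 1 CPM. The means were 5.17 ± 1.11 and 0.602 ± 0.115 CPM (SD, n = 3), a log2 fold change of -3.08 (SE 0.27), or 8.48-fold lower, on summed counts of 232 and 30. Its level is uncertain, because 216 of the 660 stretches of 50 bases in its transcript (32.7%) also occur in transcripts of 6 other genes, most often SPRR2B, and the authors' counting could divide such reads.

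S100P (ENSG00000163993.7, chr4:6693878-6697170, plus strand) was the least abundant, with 1.84, 1.64 and 2.77 CPM in Ctrl and 0.229, 0.416 and 0.127 CPM in SNRPD2KO. These levels rest on 29, 27 and 37 counts in Ctrl and 4, 7 and 2 counts in SNRPD2KO. The groups did not overlap. The means were 2.09 ± 0.600 and 0.257 ± 0.146 CPM (SD, n = 3), a log2 fold change of -2.96 (SE 0.43), or 7.77-fold lower. The ratio of the summed counts, 93 to 13, was 7.86 with an exact 95% interval of 4.38 to 15.3, which covers counting error only.

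The 2 genes of the cell surface went opposite ways. CEACAM6 (ENSG00000086548.9, chr19:41750977-41772211, plus strand) had 6.67, 7.86 and 5.76 CPM in Ctrl and 3.44, 4.63 and 4.64 CPM in SNRPD2KO. The groups did not overlap, but the lowest Ctrl library stood only about 1 CPM above the highest SNRPD2KO library. The means were 6.76 ± 1.05 and 4.24 ± 0.690 CPM (SD, n = 3), a log2 fold change of -0.68 (SE 0.19), or 1.60-fold lower, the smallest difference of the 8, and 14.6% of all genes tested had a lower fold change. In the CEACAM6 transcripts, 7.92% of the stretches of 50 bases also occur in other genes.

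MUC1 (ENSG00000185499.17, chr1:155185824-155192916, minus strand) had 26.2, 23.0 and 21.9 CPM in Ctrl and 69.0, 62.2 and 64.1 CPM in SNRPD2KO. Each SNRPD2KO library exceeded every Ctrl library. The means were 23.7 ± 2.22 and 65.1 ± 3.53 CPM (SD, n = 3), a log2 fold change of 1.46 (SE 0.08), or 2.75-fold higher, on summed counts of 1082 and 3260, and 97.2% of all genes tested had a lower fold change.

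**Figure D2:**
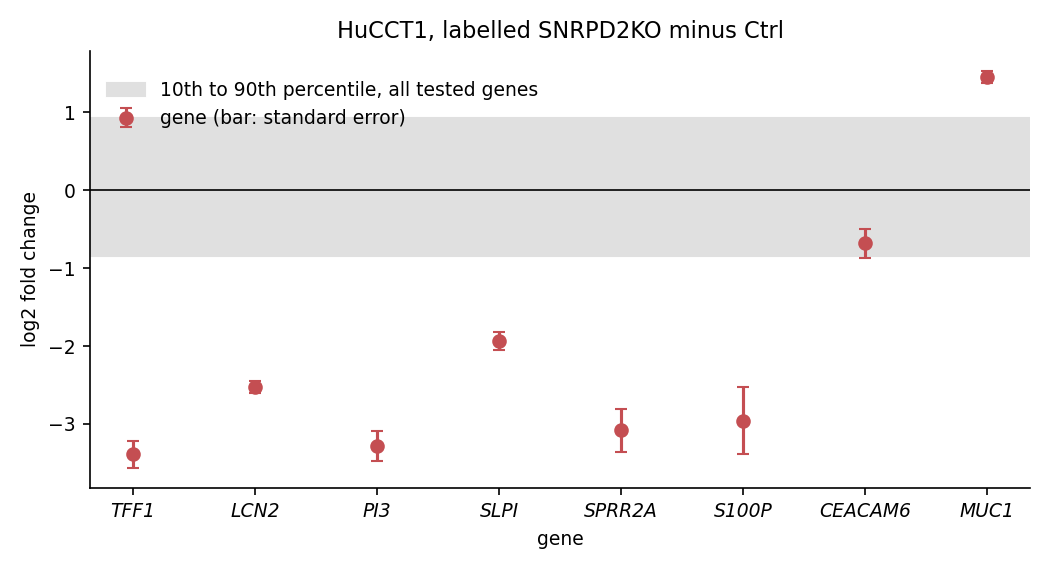
Log2 fold change of each gene in HuCCT1 (SNRPD2KO minus Ctrl) with its standard error; the grey band runs from the 10th to the 90th percentile of all genes tested, -0.85 to 0.93. CEACAM6 at -0.68 lies inside the band, MUC1 at 1.46 above it and the other 6 below it.

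Levels between genes can be compared only per length. CPM was therefore divided by the length of each gene's longest transcript in the basic annotation of GENCODE 29. In Ctrl the order of the levels in CPM per kb was LCN2 (126 ± 12.4), SLPI (33.8 ± 0.950), TFF1 (27.4 ± 1.64), PI3 (25.8 ± 1.52), SPRR2A (7.29 ± 1.56), MUC1 (5.68 ± 0.532), CEACAM6 (2.50 ± 0.390) and S100P (1.63 ± 0.469), each with its SD over 3 libraries. TFF1 and PI3 differed by no more than about their spread, as did SPRR2A and MUC1. In SNRPD2KO the order was LCN2 (21.9 ± 0.4997), MUC1 (15.6 ± 0.846), SLPI (8.84 ± 1.12), PI3 (2.66 ± 0.820), TFF1 (2.60 ± 0.639), CEACAM6 (1.57 ± 0.256), SPRR2A (0.849 ± 0.162) and S100P (0.201 ± 0.114). MUC1 thus stood sixth of 8 in Ctrl and second of 8 in SNRPD2KO, and PI3 and TFF1 again lay within their spread.

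For each gene with at least 5 CPM on average, the 3 protein-coding genes nearest to it over the 6 HuCCT1 libraries were found by the root mean square difference of log2 CPM centred on each gene's mean, among 9523 candidates. For TFF1 they were CXCL8 at 0.247, MMP1 at 0.382 and IL1B at 0.402, and for PI3 the same genes in another order, MMP1 at 0.143, IL1B at 0.289 and CXCL8 at 0.316. CXCL8 is a neutrophil chemokine, MMP1 a collagenase and IL1B an inflammatory cytokine. For LCN2 they were IL1B at 0.150, TMPRSS2, a membrane protease, at 0.165, and GRHL3, a grainyhead transcription factor of epithelia, at 0.186. For SLPI they were RGS4 at 0.0387, CHAC1 at 0.0777 and PLAUR, the urokinase receptor, at 0.101. For CEACAM6 they were GNG11, RNF8 and ORMDL3 at 0.0610 to 0.0963, and for MUC1 HAUS5, GIGYF1 and OSBPL7 at 0.0401 to 0.0580. These distances describe 6 libraries in 2 groups, so they mostly match genes on the size of the difference between the groups.

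Neighbours on the chromosome, the nearest tested protein-coding gene on each side, were given by the edgeR test over all genes. Beside TFF1, the trefoil gene TFF2 had a log2 fold change of -1.29 (adjusted p = 0.047, or 0.055 with the trend on GC content removed). TFF2 had 2.01 ± 0.239 CPM in Ctrl and 0.805 ± 0.678 CPM in SNRPD2KO, so it needed its Ctrl libraries to pass the low-count filter. The protease gene TMPRSS3, whose start lies 9.61 kb from that of TFF1, fell with -1.04 (adjusted p = 5.3e-05). SPRR2D, 16.4 kb from SPRR2A and of the same family, fell with -2.71 (adjusted p = 1.6e-05), from 4.36 to 0.654 CPM. Its SNRPD2KO level was near that of SPRR2A, so it may also have needed its Ctrl libraries to pass. Neither the p of TFF2 nor that of SPRR2D is read as support. Part of the SPRR2A transcript also occurs in other genes, so reads of SPRR2A and SPRR2D may not be fully separate. S100A6, on the other side at 478 kb, had -0.13 (adjusted p = 0.49). Around the pair PI3 and SLPI, the potassium channel gene KCNS1 fell with -0.76 and SDC4, a surface proteoglycan, with -0.92. Around LCN2, PTGES2 fell with -0.54 and BBLN with -0.68. Around MUC1 neither DPM3 (0.13, adjusted p = 0.35) nor THBS3 (0.58, adjusted p = 0.067) passed the threshold. RPS19 beside CEACAM6 fell with -0.48 (adjusted p = 0.012) and DMAC2 had -0.16 (adjusted p = 0.051). Beside S100P, MRFAP1L1 had -0.07 (adjusted p = 0.51) and the gene without a symbol ENSG00000170846 fell with -0.95.

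Related genes were counted on lists drawn up with earlier results of these data known, each read against the 28.4% of all tested genes that were lower and the 28.8% that were higher. Of 23 genes for secreted mucins, trefoil peptides and goblet cell secretion, 9 could be tested in HuCCT1: 5 were lower, 3 higher and 1 did not pass, with a median log2 fold change of -0.62. AGR2, a disulfide isomerase needed for mucin folding, fell from 88.2 ± 4.70 to 37.5 ± 2.67 CPM (log2 fold change -1.23, SE 0.07, adjusted p = 1.5e-07). ST6GALNAC1, which adds sialic acid to mucin sugars, fell from 12.1 ± 2.00 to 3.11 ± 0.454 CPM (-1.96, adjusted p = 3.1e-06), and SPDEF, a transcription factor of goblet cells, by 0.54 on the log2 scale. GCNT3, another mucin glycosyltransferase, fell by 1.56 from 1.81 CPM. CREB3L4 rose by 1.33, CREB3L1 by 0.63 and BCAS1, which stood at 0.599 CPM in Ctrl, by 1.72. TFF2, GCNT3 and BCAS1 were named after their values were seen.

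The other transmembrane mucins were split like the surface genes above. Of 11 listed, 3 could be tested, with 1 higher, 1 lower and 1 that did not pass. MUC16, the CA125 antigen, rose from 84.9 ± 7.71 to 290 ± 26.2 CPM (log2 fold change 1.77, SE 0.08, adjusted p = 3.7e-08). MUC13 fell from 9.77 ± 0.120 to 2.32 ± 0.481 CPM (-2.06, SE 0.18, adjusted p = 2.4e-06), and MUC3A had 0.53 (adjusted p = 0.11). Of 21 genes for receptors, glycosyltransferases and other partners of the 8 proteins, 10 could be tested: 7 were higher and 1 lower, with a median of 0.35. ERBB2 (1.17) and EGFR (0.81), receptor tyrosine kinases known to associate with MUC1, rose, and so did the mucin-type glycosyltransferases GALNT1 (0.59) and GALNT3 (0.44). CTNNB1, encoding beta-catenin, fell by 0.42.

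Of 30 secreted antimicrobial and antiprotease genes besides LCN2, PI3 and SLPI, 11 could be tested, and 6 were lower and 5 did not pass (median -0.35). SERPINB2, a plasminogen activator inhibitor, fell by 1.09 on the log2 scale from 149 ± 11.7 CPM, and WFDC2, a relative of SLPI, by 0.74 from 7.84 ± 1.52 CPM. SERPINA1, the antitrypsin gene, fell by 0.66 and SPINT1 by 0.48. Of 25 small proline-rich and cornified envelope genes, 8 could be tested, with 3 lower, 3 higher and 2 that did not pass (median 0.14). SPRR2D, SPRR1B (-2.68) and the cystatin gene CSTA (-1.84) were lower, and each was below 5 CPM. The plakins PPL (1.21) and EVPL (0.59), which link the envelope to the cytoskeleton, and FLG (0.94) were higher. SPRR1B, CSTA and FLG were named after their values were seen.

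Relatives of S100P went both ways, and those of CEACAM6 did not pass the threshold. Of 19 S100 genes, 11 could be tested, with 2 higher, 2 lower and 7 that did not pass (median 0.11). S100A11 fell by 0.51 from 601 ± 9.36 CPM and S100A16 by 0.49, while S100A10 rose by 0.27. S100A2 had 0.37 (adjusted p = 0.044; 0.051 with upper quartile factors). Of 11 CEACAM genes, 2 could be tested and neither passed: CEACAM1 had -0.15 (adjusted p = 0.36) and CEACAM19 -0.53 (adjusted p = 0.11).

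Regulators of epithelial and acute phase genes moved in both directions. Of 20 epithelial transcription factors and splicing regulators, 18 could be tested: 11 were lower, 4 higher and 3 did not pass (median -0.67). GRHL3 fell from 8.91 ± 0.356 to 1.53 ± 0.378 CPM (log2 fold change -2.53, SE 0.20, adjusted p = 1.2e-06). The forkhead factors FOXA2 (-1.23), FOXA3 (-1.09) and FOXA1 (-0.93) fell as well. GRHL1 (0.87) and GRHL2 (0.47) rose, and so did the epithelial splicing regulators ESRP2 (1.27) and ESRP1 (0.64). Of 18 acute phase genes and regulators of LCN2, 12 could be tested, with 8 lower, 3 higher and 1 that did not pass (median -0.42). CEBPB fell by 0.83, SOCS3 by 0.65, SAA2 by 0.55 and C3 by 0.51 on the log2 scale, whereas NFKBIZ, which encodes the IkappaB-zeta cofactor known to induce LCN2, rose by 0.62, STAT3 by 0.28 and IL17RA by 0.25. Among 11 testable markers of bile duct epithelium, 5 were lower, 1 higher and 5 did not pass, with KRT7 at 0.10 (adjusted p = 0.093) and EPCAM at -0.03 (adjusted p = 0.67). Fibroblast markers summed to 10.997 to 13.2 CPM in Ctrl and 20.5 to 22.3 CPM in SNRPD2KO, where COL3A1 and PDGFRA were at 0. The 2 that could be tested, COL1A1 (0.85) and LUM (1.68), both rose, and the part of other cells in these list counts was not tested.

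**Figure D3:**
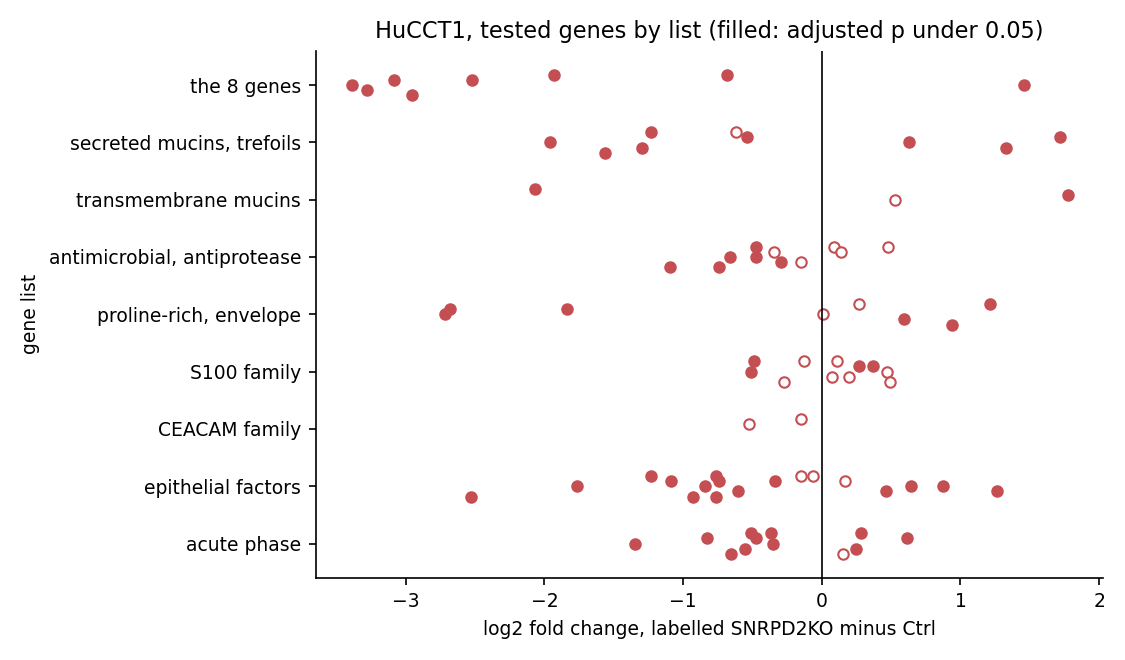
Log2 fold change in HuCCT1 (SNRPD2KO minus Ctrl) of every testable gene in the 8 genes' own set and 8 lists of related genes; each circle is a gene, filled where its adjusted p was under 0.05. The antimicrobial list has 6 filled circles, all below 0, while transmembrane mucins have 1 filled circle on each side.

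In HEK293T, 7 of the 8 genes were at or near 0. Over all 9 libraries and 89456700 counts, SPRR2A and CEACAM6 had 0 counts, which allows a level of up to 0.0335 CPM (3 counts of the total). TFF1 had 1 count, LCN2 and PI3 had 2 each, SLPI had 7 and MUC1 had 27. MUC1 had 5, 6 and 2 counts in the Ctrl libraries, 2, 1 and 5 in SNRPD2KO and 3, 1 and 2 in PUS7KO, so its groups overlapped. The ratio of its summed counts, 8 in SNRPD2KO to 13 in Ctrl, was 0.549 (exact 95% interval 0.197 to 1.43), against 2.74 (2.56 to 2.94) in HuCCT1, and both intervals cover counting error only. S100P alone passed the low-count filter, with 226 counts, and it passed through the libraries labelled SNRPD2KO and PUS7KO, since its Ctrl libraries hold too few. A gene with such Ctrl levels had to differ to be kept, so its differences carry no p here.

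S100P in HEK293T had 0.536, 0.114 and 0.114 CPM in Ctrl, 2.58, 2.09 and 3.50 CPM in SNRPD2KO and 4.78, 3.76 and 4.16 CPM in PUS7KO. All 6 libraries labelled SNRPD2KO or PUS7KO lay above all 3 Ctrl libraries, and the Ctrl levels rest on 5, 1 and 1 counts. The means were 0.255 ± 0.244, 2.72 ± 0.715 and 4.23 ± 0.513 CPM (SD, n = 3 each). S100P was higher in SNRPD2KO with a log2 fold change of 3.34 (SE 0.47), or 10.1-fold, and 99.9% of the 15882 genes tested had a lower fold change. In the edgeR test of that comparison 53.3% of genes passed the threshold, 26.9% as higher and 26.4% as lower, and 30.1% had every SNRPD2KO library above every Ctrl library. It was higher in PUS7KO with 3.96 (SE 0.44), or 15.6-fold, where 49.4% of genes passed, 25.6% as higher, and 29.5% had every PUS7KO library above Ctrl. Both comparisons share the same 3 Ctrl libraries. Without Ctrl replicate 1, which holds 5 of the 7 Ctrl counts, the log2 fold changes became 4.45 and 5.06. SNRPD2KO minus PUS7KO gave -0.62 (SE 0.29), with 2.09 to 3.50 CPM against 3.76 to 4.78 CPM. In that comparison 4.77% of genes passed the threshold and S100P did not, so no difference is read from these ranges. The ratios of summed counts were 10.7 (exact 95% interval 4.97 to 27.4) for SNRPD2KO and 16.2 (7.64 to 41.0) for PUS7KO, counting error only.

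**Figure D4:**
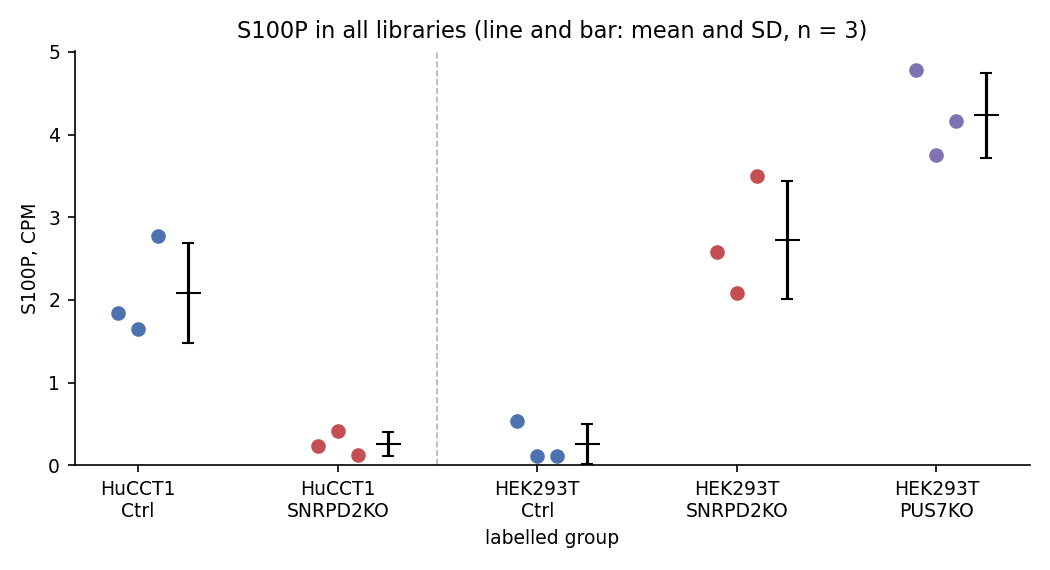
S100P in CPM for each library of the 5 labelled groups, with the mean and SD (n = 3) beside the points. In HuCCT1 the SNRPD2KO libraries (0.127 to 0.416 CPM) lie below Ctrl, and in HEK293T the SNRPD2KO and PUS7KO groups lie above Ctrl (0.114 to 0.536 CPM).

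The S100P difference thus ran opposite ways in the lines. In 1 fit over the 12 SNRPD2KO and Ctrl libraries, the HuCCT1 log2 fold change minus that of HEK293T was -6.35 (SE 0.70), given without a p since the values of both lines were in view when the genes were chosen. Of all 17617 genes in that fit, 40.7% passed the test of the same term. Without HEK293T Ctrl replicate 1 the difference became -7.47. Of the 6 other S100 genes tested in HEK293T SNRPD2KO against Ctrl, 1 was higher and 2 lower, among them S100A10 with -1.03 (adjusted p = 3.5e-07). S100A1 (1.78, adjusted p = 0.0039) was the one that rose, with a mean under 5 CPM in both groups.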

How the data were processed

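RNA-seq libraries (9 of HEK293T, 6 of HuCCT1) were made from total RNA depleted of ribosomal RNA, with a stranded kit, per the labels' protocols. The authors deposited whole-number read counts per gene, 1 table per line; cutadapt 4.2, HISAT2 2.2.1, RSEM and build hg38 are named in the submitters' processing notes, without roles, and the annotation release is not given in the sources used here. Coordinates are those of the tables. The descriptions of the HuCCT1 libraries call their count table CHOL; it was taken to be the deposited HuCCT1 table.

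The lines were modelled separately with edgeR 4.0.16 under R 4.3.3: TMM factors, filterByExpr (a count of 10 and a total of 15 as minimums), quasi-likelihood F test, two-sided, Benjamini-Hochberg adjustment over all genes of a comparison (15007 in HuCCT1, 15882 in HEK293T), threshold 0.05. The HEK293T fit held all 9 libraries. The biological coefficient of variation was 10.1% and 10.8%. The difference between lines was an interaction term over 12 libraries. On simulated counts of 20250 HuCCT1 genes, 93% of 2-fold and 100% of 4-fold changes were recovered. Of 25041 genes in the interaction, 82% and 99% were recovered. The changes were planted in 200 genes, all with a higher mean count than S100P, and every gene had the same spread. These rates therefore do not cover genes as low as S100P. A floor of 3 counts equals 0.266 to 0.378 CPM in single HEK293T libraries and 0.179 to 0.218 CPM in HuCCT1. Reads carry no molecular identifiers, so intervals and floors cover counting error only.

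The 8 genes and all lists were chosen with earlier results of these data known. From each list, up to 4 genes per direction were named, those past the threshold with the largest fold change and at least 5 CPM in the higher group; for each of the 8 genes with at least 5 CPM the 3 most alike genes, and for all 8 the nearest tested neighbours. Some genes that met the rule are left out of the text. MUC3A, CEACAM1, CEACAM19, KRT7, EPCAM, LUM, CD14 and MPO were named outside the rule. So were S100A1 in HEK293T, KLF4 in HuCCT1 and the genes marked above as named after their values were seen. Log2 CPM used a pseudocount of 0.25. Alternatives were other size factors, other filters, limma 3.58.1 voom, DESeq2 1.42.0, thinned counts, a block on replicate numbers, leaving out each library, and removal of a trend on GC content, added after seeing the data.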

Additional observations from a re-analysis of the deposited data

Results flagged for a closer look

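S100P differed between the lines in its response to the label SNRPD2KO. Its log2 fold change against Ctrl was -2.96 in HuCCT1 and 3.34 in HEK293T, and the interaction term was -6.35 (SE 0.70). No p is given, because the gene was chosen with the values of both lines in view. In each line it also passed the filter only through the groups where it was high. All 3 SNRPD2KO libraries lay below Ctrl in HuCCT1 and all 3 above it in HEK293T. The low group holds 13 counts in HuCCT1 and 7 in HEK293T, and SNRPD2 RNA itself was higher in the SNRPD2KO libraries of both lines; the part of either in the difference was not tested.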

How the results depend on the processing

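All 189 recomputed fold changes of the 8 genes kept their direction, over 15 settings in HuCCT1, 16 in each HEK293T comparison and 21 for the difference between lines. In HuCCT1 the log2 fold changes ranged from -3.61 to -3.26 for TFF1, -2.57 to -2.44 for LCN2, -3.48 to -3.05 for PI3, -2.03 to -1.83 for SLPI, -3.19 to -2.90 for SPRR2A, -3.45 to -2.64 for S100P, -0.78 to -0.55 for CEACAM6 and 1.21 to 1.53 for MUC1. S100P in HEK293T ranged from 3.02 to 4.45 in SNRPD2KO and 3.63 to 5.06 in PUS7KO, and SNRPD2KO minus PUS7KO from -0.85 to -0.46. The count of genes past the threshold in HEK293T SNRPD2KO against PUS7KO was 758. It became 1292 with no low-count filter, 464 with the 2 groups fitted alone and 135 with the GC trend removed, an alternative chosen after seeing the data, and leaving out 1 library gave 22 (without SNRPD2KO replicate 1) to 1891 (without SNRPD2KO replicate 3). The cause was not tested. The other counts of genes stayed within 1.5 times: 7889 to 8986 in HuCCT1, 7749 to 9438 and 7027 to 8461 in HEK293T SNRPD2KO and PUS7KO against Ctrl. Same-numbered replicates did not deviate together (correlations of -0.03 to 0.01 in HuCCT1 and -0.13 to 0.04 in HEK293T, none above 0.1), so the numbers were not taken to pair libraries; 0 of 3 in HuCCT1 and 1 of 3 in each HEK293T comparison, number 1, correlated best with its own number. With a replicate block 8346 genes passed in HuCCT1, 8320, 7674 and 560 in HEK293T SNRPD2KO against Ctrl, PUS7KO against Ctrl and SNRPD2KO against PUS7KO, and 6933 in the difference between lines. At this depth S100P rests on 7 counts in HEK293T Ctrl and 13 in HuCCT1 SNRPD2KO, and the other 7 genes did not pass the filter in HEK293T.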

Other observations

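Regulators and acute phase genes related to LCN2 could be measured in HEK293T although LCN2 itself was near 0 there. CEBPB, a transcription factor of the acute phase, rose from 15.8 ± 1.92 CPM in HEK293T Ctrl to 50.4 ± 5.46 CPM in SNRPD2KO (log2 fold change 1.67, edgeR adjusted p = 2.2e-08) and 40.3 ± 4.56 CPM in PUS7KO (1.35, adjusted p = 3.0e-07), while it fell by 0.83 in HuCCT1 SNRPD2KO. The difference between lines in SNRPD2KO minus Ctrl was -2.54 (adjusted p = 3.4e-10). Complement C3 rose by 1.56 in HEK293T SNRPD2KO and fell by 0.51 in HuCCT1, a difference of -2.12 (adjusted p = 3.0e-06). NFKBIZ ran the other way, with -1.24 in HEK293T and 0.62 in HuCCT1, a difference of 1.81 (adjusted p = 1.2e-06). SOCS3 fell in both lines, by 0.79 and 0.65, and its difference between lines did not pass the threshold (0.09, adjusted p = 0.79). In HEK293T PUS7KO against the same Ctrl libraries, C3 rose by 1.61, NFKBIZ fell by 0.97 and SOCS3 fell by 0.65.

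CREB3L4 rose by 1.58 in HEK293T SNRPD2KO and by 1.33 in HuCCT1 (difference between lines -0.30, adjusted p = 0.37). KLF4 fell from 14.2 ± 2.63 to 6.41 ± 0.595 CPM in HEK293T SNRPD2KO (-1.15, adjusted p = 2.1e-05) and by 0.84 in HuCCT1. FOXA1 fell by 0.71 in HEK293T and by 0.93 in HuCCT1. ERBB2 rose by 0.71 in HEK293T and by 1.17 in HuCCT1, and this difference in size passed the threshold (0.41, adjusted p = 0.0039). In HEK293T PUS7KO against the same Ctrl libraries, CREB3L4 rose by 1.58 and ERBB2 by 0.60, while KLF4 fell by 0.68 and FOXA1 by 0.69. In HEK293T these shifts thus had the same direction under the labels SNRPD2KO and PUS7KO. Both comparisons rest on the same Ctrl libraries, and an exchange of the SNRPD2KO and Ctrl labels would change both, which was not tested.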
